A study of Mus musculus with 4 samples.

Results

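Matrix metalloproteinases (MMPs), their membrane-bound and secreted relatives of the ADAM and ADAMTS families, and tissue inhibitors of metalloproteinases (TIMPs) were examined in RNA-seq counts. The cells are described as MIN6, a mouse insulinoma line. The members were all rows of the count table whose gene name starts with Mmp, Adam, Adamts or Timp followed by a digit. This gave 79 of 23473 gene rows, of which 33 were Adam, 19 Adamts, 23 Mmp and 4 Timp genes. The 2 control libraries are described as wild type MIN6 cells. The other 2 libraries are described as MIN6 cells with stable overexpression of TLX. TLX is the product of Nr2e1 and a nuclear receptor with no known natural ligand. Both groups are labelled as grown in 25 mM glucose and 15% serum. The vector, its promoter and whether the TLX line is a clone or a pool: none of these was given in the sources used here. Nothing says that the libraries of a group came from separate cultures, so p-values measure only the spread between these libraries, which may be technical. The question was which of these protease and inhibitor transcripts differ when TLX is overexpressed.

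MMPs are zinc-dependent enzymes that cut collagens, proteoglycans and other proteins outside the cell, and they are made as inactive precursors. ADAMs sit in the cell membrane and release the outer parts of growth factors, receptors and adhesion proteins, while ADAMTS enzymes are secreted and act mainly on proteoglycans and procollagens. TIMPs bind the active site of these enzymes and block them, and TIMP-2 also helps the membrane-anchored MMP-14 to activate the precursor of MMP-2. In islets these enzymes take part in remodelling the matrix around the endocrine cells and in shedding of membrane proteins.

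Gene rows took 8136185 to 9788646 counts per library. Nr2e1 was counted 8 and 10 times in control replicates 1 and 2, and 338 and 281 times in TLX replicates 1 and 2. Of the 14 genes listed as beta cell markers 10, among them Iapp, Nkx6-1, Slc2a2 and Chga, had 0 counts in every library. The other 4, Ins1, Ins2, Pdx1 and Mafa, had 14 to 98 counts per library, and none differed at an edgeR adjusted p under 0.05. The whole list summed to 18.3 and 20.6 CPM (counts scaled to library size) in control and 20.8 and 21.7 CPM in TLX. The 12 genes of the fibroblast and mesenchymal list summed to 7419 and 7817 CPM in control and 7959 and 8291 CPM in TLX. Most of that sum came from Col1a2, Vim, S100a4 and Fn1. In contrast, Lum was at 0, and Col3a1, Dcn, Thy1 and Acta2 had 0 to 6 counts per library. Of the 7 tested genes of this list Col1a2 rose and Fn1 and Pdgfrb fell. The listed beta cell transcripts were therefore absent or scarce in both groups. That is at odds with the insulinoma origin given in the description. The identity of the cells was not tested, so the results should not be read as those of beta cells. The leukocyte list summed to 59.5 and 68.4 CPM in control and 43.5 and 45.9 CPM in TLX, nearly all of it Cd68, with Ptprc at 0 or 1 count per library. The 5 endothelial markers had 0 to 3 counts per library in sum. The duct and acinar list summed to 27.1 and 29.6 CPM in control and 12.6 and 12.2 CPM in TLX, nearly all of it Sox9, which fell (edgeR adjusted p = 1.57e-07). The part of these markers in the protease results was not tested, and in bulk libraries fewer cells of a type and less RNA per cell cannot be told apart.

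Most members were barely transcribed. Of the 79, 29 had 0 counts in all 4 libraries, another 29 had 1 to 29 counts summed over the libraries, and 21 passed the filter on low counts and were tested. For a gene at 0 the upper limit is 3 counts, or 0.302 to 0.379 CPM depending on the library, for counting error only. Of the 21 tested members 10 differed between the groups (edgeR quasi-likelihood test with Benjamini-Hochberg adjustment over 11024 genes, adjusted p under 0.05). Adam12, Adam33, Mmp14 and Timp2 rose, and Mmp11, Mmp19, Mmp28, Adamts1, Adamts6 and Adamts14 fell. That is 19.0% called higher and 28.6% called lower, beside 7.79% and 9.04% of all genes tested, and 47.6% called in either direction beside 16.8%. The median log2 fold change of the tested members was 0.02, against 0.0006 for all genes tested. The calls went both ways. The control and TLX libraries did not overlap for 15 of the 21, 6 of them higher and 9 lower in TLX, beside 57.1% of all genes tested. In DESeq2 4 of the 10 passed, namely Adam33, Timp2, Mmp19 and Adamts1, and 3 others (Adam12, Adamts6 and Mmp28) received no adjusted p there.

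**Figure D1:**
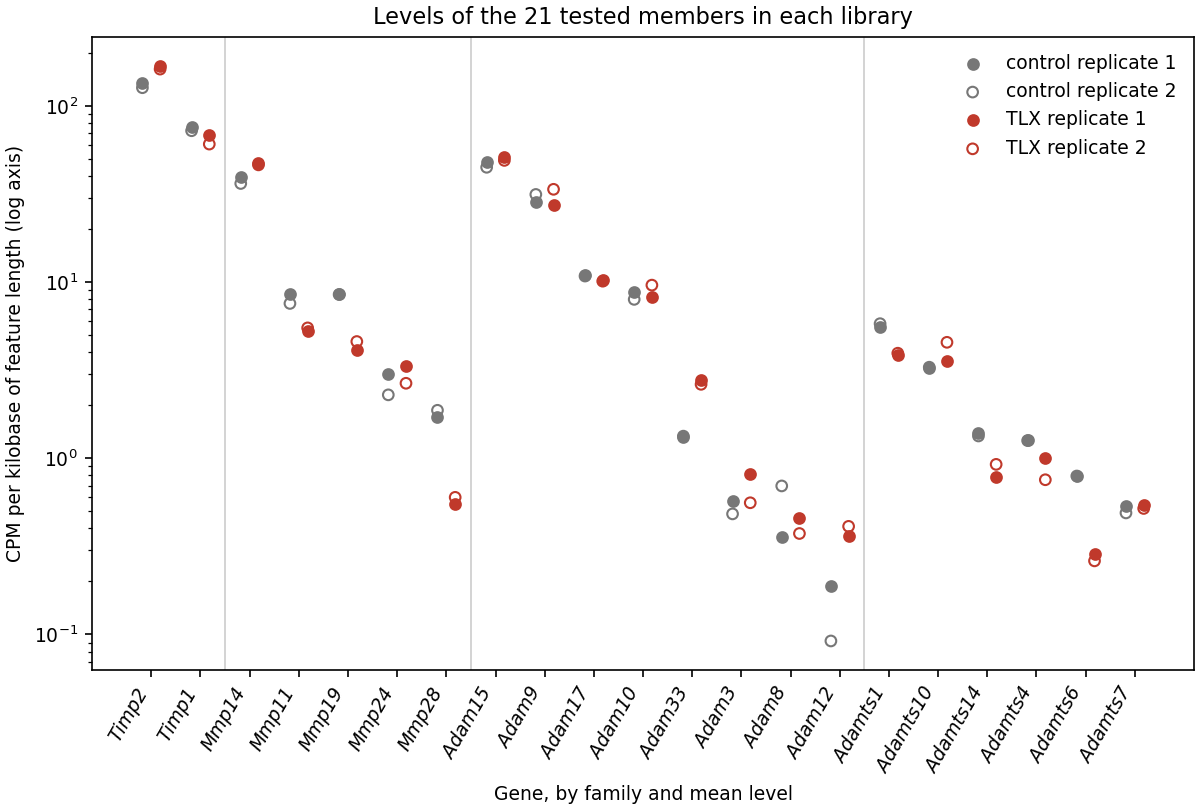
Levels of the 21 tested members in CPM per kilobase of feature length (log axis), by family and mean level, with 1 point per library (grey control, red TLX, filled replicate 1, open replicate 2). Timp2 lies above all others at 127 to 170, and the TLX points of Mmp28 and Adamts6 lie well under their control points.

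Among the inhibitors, Timp2 was the most abundant member of the whole set and rose with TLX. It was counted 4076 and 4571 times in control and 5320 and 4653 times in TLX, which is 488 and 460 CPM against 615 and 587 CPM. Both TLX libraries were above both control libraries. The mean went from 474 ± 20 to 601 ± 20 CPM (SD, n = 2), which is 0.34 on the log2 scale (SE 0.08, 1.27-fold; edgeR adjusted p = 0.00328). The call was lost without TLX replicate 1 (adjusted p = 0.106; 1e-07 to 0.106 over the alternatives). Timp1, an inducible inhibitor, stood at 67.4 and 64.4 CPM in control and 60.6 and 54.1 CPM in TLX. Its log2 fold change was -0.20 with a 95% interval of -0.38 to -0.01 and it did not pass (edgeR adjusted p = 0.14). Timp3, a matrix-bound inhibitor, had 1 count, in control replicate 2, and Timp4 had 0. On the per-length scale the ratio of Timp1 to Timp2 was 0.562 and 0.570 in control and 0.401 and 0.375 in TLX, with no overlap between the groups. Timp2 made up 64.0% and 63.7% of the Timp family sum of CPM per kilobase in control and 71.4% and 72.7% in TLX.

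Mmp14, the membrane-anchored collagenase that works together with TIMP-2, also rose. Its counts were 860 and 937 in control and 1061 and 954 in TLX, or 103 and 94.4 CPM against 123 and 120 CPM, with no overlap between the groups. The log2 fold change was 0.30 (SE 0.08, 1.23-fold; edgeR adjusted p = 0.0121). It did not pass without TLX replicate 1 (0.157), without TLX replicate 2 (0.105) or in DESeq2 (0.0557), and over the alternatives the adjusted p ranged from 0.000105 to 0.157. Timp2 stood at 3.40 and 3.50 times the level of Mmp14 per length in control and at 3.60 and 3.50 times in TLX, and both genes rose. Mmp2, the gelatinase whose precursor this pair activates, had 1 count in control replicate 1 and 1 in TLX replicate 2, and Mmp9, the other gelatinase, had 1 count in all. Of the other membrane-type genes Mmp24 was measurable, at 12.9 and 9.87 CPM in control and 14.3 and 11.5 CPM in TLX (log2 fold change 0.20, 95% interval -0.15 to 0.54; edgeR adjusted p = 0.464). Mmp15 and Mmp16 were at 0, and Mmp17 and Mmp25 had 1 count each.

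The secreted MMPs with enough counts were all lower with TLX. Mmp28, known as epilysin, had the largest fall: 33 and 43 counts in control and 11 in each TLX library. That is 3.95 and 4.33 CPM against 1.27 and 1.39 CPM, or -1.64 on the log2 scale (SE 0.31, 3.11-fold lower; edgeR adjusted p = 0.000653). Only 24 of the 11024 genes tested had a lower fitted value. Mmp19, an enzyme that cuts basement membrane proteins, had the smallest p of all members. It was counted 246 and 292 times in control and 123 and 126 times in TLX, or 29.5 and 29.4 CPM against 14.2 and 15.9 CPM (log2 fold change -0.97, SE 0.12, 1.96-fold lower; edgeR adjusted p = 5.45e-06). It passed under each alternative run, leave-one-out fits included. Mmp11, or stromelysin-3, which acts on few matrix proteins and is activated inside the cell by furin, stood at 19.3 and 17.0 CPM in control and 11.9 and 12.4 CPM in TLX. Its log2 fold change was -0.58 (SE 0.14, 1.49-fold lower; edgeR adjusted p = 0.006), and it did not pass in DESeq2 (0.0936; 0.000241 to 0.0936 over the alternatives). Control and TLX libraries did not overlap for any of these 3 genes.

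Exons of these 3 genes overlap genes on the opposite strand in the GENCODE annotation of GRCm38, and the use of strand in counting was not given, so reads of such pairs cannot be told apart there. Mmp28 shares 466 exon bases with 1700020L24Rik, which had 20 and 16 counts in control and 8 and 6 in TLX (log2 fold change -1.21, edgeR adjusted p = 0.0538). Mmp19 shares 789 with Tmem198b, which went from 30.7 ± 2.8 to 23.6 ± 0.5 CPM (SD, n = 2; log2 fold change -0.37, edgeR adjusted p = 0.0253). Mmp11 shares 155 with Chchd10, which had 2 to 6 counts per library. Opposite-strand overlaps also touch Mmp24, Adam3, Adam8, Adam15, Adam17, Adamts4, Adamts7, Timp3 and Timp4. The largest of any tested member was that of Adam15 with 4731419I09Rik, at 1263 exon bases. No exon overlap with another gene was found for Timp1, Timp2, Mmp14, Adam12, Adam33, Adamts1, Adamts6 or Adamts14.

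As a family, Mmp transcripts summed to 170 and 157 CPM in control and 166 and 164 CPM in TLX, so the family sum overlapped between groups while its make-up differed. Mmp14 took 63.7% and 62.9% of the Mmp family sum of CPM per kilobase in control and 76.8% and 75.9% in TLX. Mmp19 took 13.7% and 14.7% in control and 6.70% and 7.54% in TLX, and Mmp11 13.8% and 13.1% against 8.62% and 9.01%. The membrane-type genes together went from 116 and 104 CPM to 137 and 132 CPM.

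**Figure D2:**
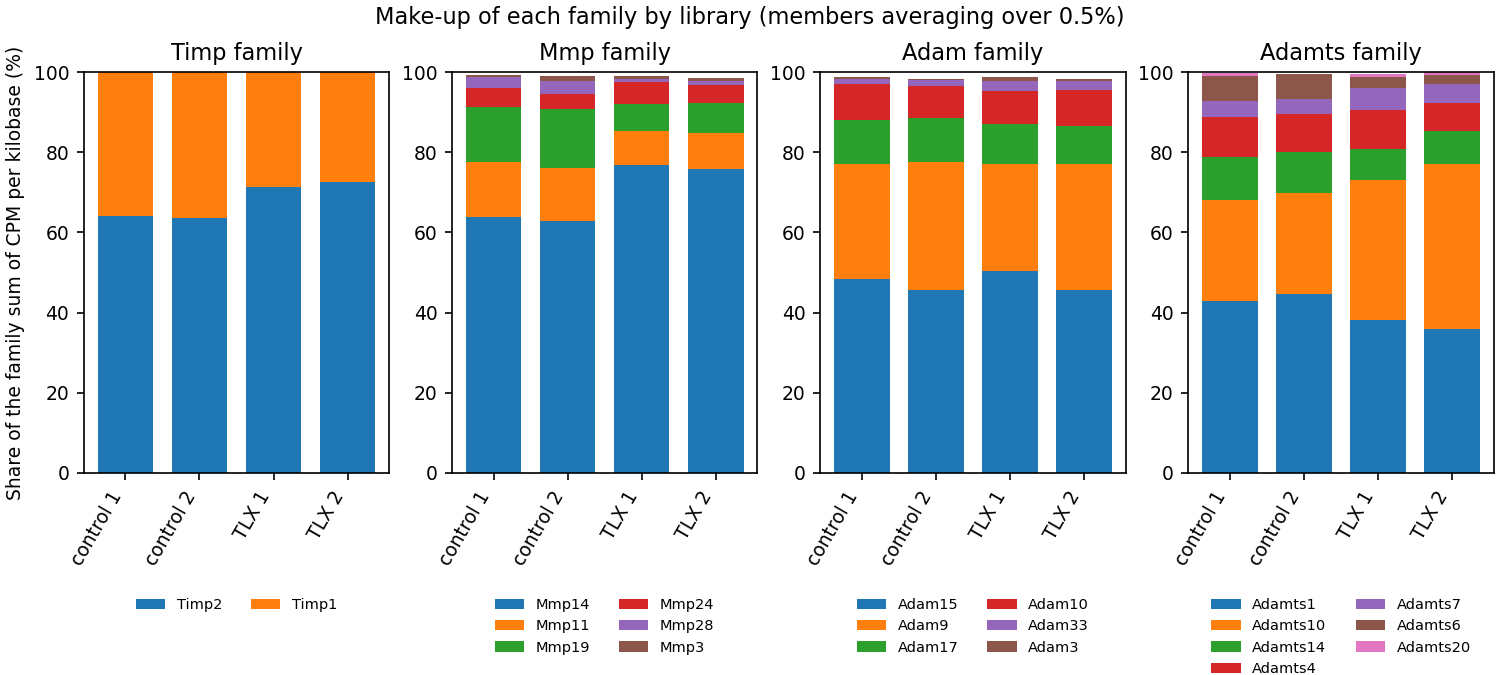
Share of each member in its family's sum of CPM per kilobase, in percent, for each library, drawn for members averaging over 0.5%. Timp2 goes from 64.0% and 63.7% to 71.4% and 72.7% of the Timp sum and Mmp14 from 63.7% and 62.9% to 76.8% and 75.9% of the Mmp sum, while the share of Adam15 in the Adam sum overlaps between the groups.

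The secreted collagenases, the stromelysins other than Mmp11 and matrilysin were near or at 0. In the RefSeq gene order 10 secreted MMP genes, Mmp13, Mmp12, Mmp1b, Mmp3, Mmp1a, Mmp10, Mmp8, Mmp27, Mmp20 and Mmp7, lie side by side with no other protein-coding gene between them. They had 59 counts in all over the 4 libraries, 6 of the 10 had 0, and none was tested. Mmp3, or stromelysin-1, was the highest of the run with 4 and 12 counts in control and 7 and 6 in TLX. Mmp13, the main rodent collagenase, had 6 and 5 counts in control and 5 and 3 in TLX, and Mmp10 had 1 and 2 against 2 and 4. These counts overlap between the groups for Mmp3 and, in CPM, for Mmp13, and are too few to show a difference.

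Several genes of this run are textbook targets of AP-1, the Fos and Jun dimer that binds the letters TGANTCA close to the start site. RefSeq promoter windows (GRCm38.p6, 250 bases before to 50 after the start) were matched by symbol to 49 of the 79 members, with 54 windows. The letters TGANTCA, searched on both strands, occurred in 13 of 54 member windows (24.1%), beside 7.81% of all 32851 windows. Most of these 13 windows belonged to the run, where 8 of the 10 genes held the letters. Their first base lay 35 to 95 bases before the start. Of the 12 windows of tested members 0 held them, but 12 windows are too few to tell this from the 7.81% of all windows. The windows of tested members were richer in G and C (median 66.2%, against 50.2% in the 42 windows of members that were not tested). The 100 bases before the start are printed for 4 genes of the run, to show the shared element, and for 3 tested members called with TLX, to show windows without it. Capitals mark TGANTCA, and each sequence reads 5′ to 3′ on the strand of its gene.
Mmp3, chr9:7445722-7445821, plus strand: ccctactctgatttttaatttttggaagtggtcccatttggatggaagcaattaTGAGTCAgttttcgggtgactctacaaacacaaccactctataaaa
Mmp10, chr9:7502242-7502341, plus strand: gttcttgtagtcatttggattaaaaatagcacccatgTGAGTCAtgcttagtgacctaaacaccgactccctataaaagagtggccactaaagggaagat
Mmp13, chr9:7272414-7272513, plus strand: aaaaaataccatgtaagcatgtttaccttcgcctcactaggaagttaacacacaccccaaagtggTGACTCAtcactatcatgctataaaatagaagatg
Mmp1a, chr9:7464041-7464140, plus strand: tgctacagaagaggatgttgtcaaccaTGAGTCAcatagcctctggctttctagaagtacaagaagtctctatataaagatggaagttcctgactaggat
Mmp14, chr14:54431498-54431597, plus strand: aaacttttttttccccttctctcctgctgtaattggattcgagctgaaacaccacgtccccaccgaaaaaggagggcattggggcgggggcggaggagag
Mmp28, chr11:83463041-83463140, minus strand: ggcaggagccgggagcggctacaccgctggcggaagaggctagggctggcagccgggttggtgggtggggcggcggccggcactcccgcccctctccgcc
Timp2, chr11:118355412-118355511, minus strand: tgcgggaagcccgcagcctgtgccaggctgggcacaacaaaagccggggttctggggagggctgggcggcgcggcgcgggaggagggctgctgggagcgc

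The letters AAGTCA, a motif TLX is known to bind, occurred on either strand in 8 of the 54 member windows (14.8%), beside 15.1% of all windows. Mmp11 was the only tested member with them. GGAAGT, an ETS motif, occurred in 13 (24.1%), beside 23.8% of all windows, among them the windows of Timp1 and Adamts14. None of these motifs can lie within another, though their ends can overlap. The tested members Adam3, Adam9, Adam12, Adam33, Adamts4, Adamts6, Adamts7, Adamts10 and Mmp19 were not matched. A match is a description of these letters and says nothing of binding.

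Among the ADAMs the widely expressed sheddases were the most abundant and did not pass the test, and the changes were in scarce members. Adam12, which cuts insulin-like growth factor binding proteins and EGF family ligands and marks growing mesenchymal cells, had 12 and 7 counts in control and 24 and 25 in TLX. That is 1.44 and 0.705 CPM against 2.78 and 3.15 CPM, with no overlap (log2 fold change 1.49, SE 0.37, 2.82-fold; edgeR adjusted p = 0.00706). Control replicate 2 lay under the minimum count of 10 used in filtering, so this gene was tested because of its level in TLX, and the call was lost without control replicate 2 (0.132) or TLX replicate 2 (0.0534; 0.00109 to 0.132 over the alternatives). Adam33, a sheddase of mesenchymal cells known from asthma genetics, had 35 and 42 counts in control and 76 and 66 in TLX. Its level went from 4.19 and 4.23 CPM to 8.79 and 8.33 CPM (log2 fold change 1.02, SE 0.20, 2.03-fold; edgeR adjusted p = 0.000902), and it passed under each alternative that tested it.

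Adam15, an adhesion-binding protease, was the highest ADAM per length, though reads of its opposite-strand overlap could not be told apart. It stood at 143 and 134 CPM in control and 154 and 147 CPM in TLX (log2 fold change 0.12, 95% interval -0.04 to 0.28). Adam9 stood at 115 and 127 CPM in control and 110 and 136 CPM in TLX (0.02, -0.17 to 0.21). Adam10, which starts Notch and cadherin cleavage, stood at 40.2 and 36.7 CPM against 37.6 and 44.2 CPM (0.09, -0.13 to 0.30). Adam17, the TNF-alpha converting enzyme, stood at 49.2 and 48.8 CPM against 46.4 and 45.7 CPM (-0.09, -0.28 to 0.10). For none of these 4 did the edgeR adjusted p pass (0.32, 0.906, 0.621 and 0.551), and their intervals lie within a 1.5-fold change in either direction. TLX libraries lay above control for Adam15 and below control for Adam17, and overlapped for the other two.

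The remaining ADAMs were scarce. Adam8, found mostly in myeloid cells, had 9 and 21 counts in control and 12 and 9 in TLX, and Adam3, a sperm gene, had 13 in each control library and 19 and 12 in TLX. Neither passed (edgeR adjusted p of 0.606 and 0.532), and their intervals of -1.23 to 0.50 and -0.39 to 1.17 are wide. Adam19 and Adam28 had 5 counts and 1 count in all. The neuronal adhesion members Adam11 and Adam22 had 15 and 25 counts in all, Adam22 with 3 and 5 in control and 8 and 9 in TLX, and Adam23 had 0. Of the 21 germ cell ADAMs 12 were at 0, and apart from Adam3 the highest was Adam1a with 23 counts in all. As a family, Adam transcripts summed to 358 CPM in each control library and to 366 and 390 CPM in TLX.

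The 3 ADAMTS genes that changed all fell. Adamts6, an enzyme linked to fibrillin and heart valve matrix, had 32 and 38 counts in control and 12 and 10 in TLX. Its levels were 3.83 and 3.83 CPM against 1.39 and 1.26 CPM (log2 fold change -1.52, SE 0.32, 2.87-fold lower; edgeR adjusted p = 0.0016). Adamts1, which cuts versican and aggrecan, had 226 and 282 counts in control and 164 and 153 in TLX. Per length it was the most abundant of the family in control. In TLX replicate 2 it lay under Adamts10, at 3.95 against 4.56 CPM per kilobase. Adamts1 stood at 27.1 and 28.4 CPM against 19.0 and 19.3 CPM (log2 fold change -0.54, SE 0.12, 1.45-fold lower; edgeR adjusted p = 0.00233). Adamts14, which trims the N-terminal propeptide of fibrillar procollagens, had 60 and 69 counts in control and 35 and 38 in TLX (log2 fold change -0.68, SE 0.21, 1.60-fold lower; edgeR adjusted p = 0.0278). The groups did not overlap for any of the 3. Adamts14 lost its call without control replicate 1 (0.0616), control replicate 2 (0.0555) or TLX replicate 1 (0.216) and in DESeq2 (0.276; 0.0105 to 0.276 over the alternatives).

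The other 3 tested ADAMTS genes did not pass. Adamts4, an aggrecanase, had 39 and 46 counts in control and 32 and 22 in TLX (log2 fold change -0.51, 95% interval -1.03 to 0.00; edgeR adjusted p = 0.171). Adamts10, which binds fibrillin, stood at 13.3 and 13.4 CPM in control and 14.6 and 18.5 CPM in TLX (0.31, 0.00 to 0.61; edgeR adjusted p = 0.163). Adamts7 had 22 to 26 counts in every library (0.05, -0.54 to 0.64). Of the 3 procollagen N-propeptidases Adamts14 was measurable, while Adamts2 had 3 counts in all and Adamts3 had 0. Adamts5, the other main aggrecanase, had 1 count, and Adamts8 and Adamts9 had 0. The family sum was 59.9 and 60.2 CPM in control and 46.6 and 50.1 CPM in TLX, with no overlap. Adamts10 took 25.3% and 25.2% of the family's CPM per kilobase in control and 35.1% and 41.3% in TLX, and Adamts1 42.9% and 44.5% against 38.0% and 35.8%.

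**Figure D3:**
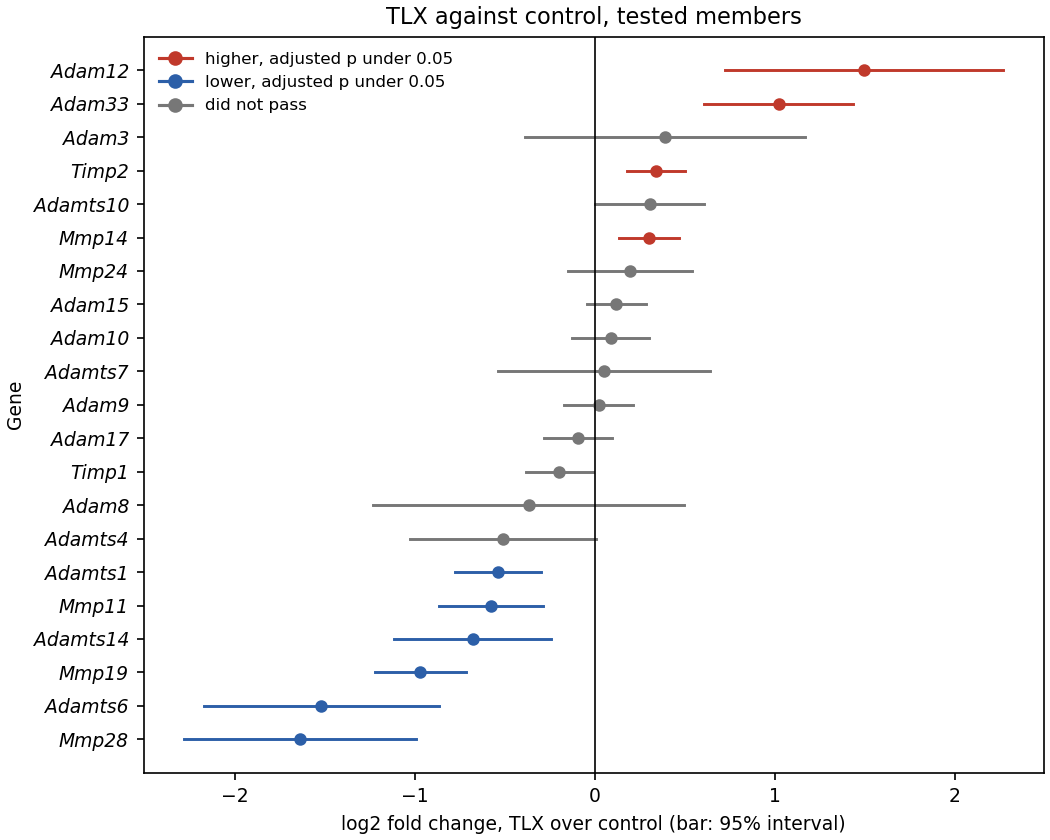
Log2 fold change of TLX over control with its 95% interval for the 21 tested members, in order of size (red higher and blue lower at adjusted p under 0.05, grey not passed). The 4 that rose lie at 0.30 to 1.49 and the 6 that fell at -0.54 to -1.64, and the intervals of scarce genes such as Adam3 and Adam8 are the widest.

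By size, 4 of the 21 tested members fell at least 1.5-fold (Mmp28, Adamts6, Mmp19 and Adamts14), beside 3.37% of all genes tested, and 2 rose at least 1.5-fold (Adam12 and Adam33), beside 1.42%. The members that rose less, Timp2 and Mmp14, were the most abundant of their families. On the per-length scale the order of levels in control ran from Timp2 (135 and 127 CPM per kilobase) through Timp1 (75.8 and 72.4), Adam15 (47.8 and 44.9), Mmp14 (39.7 and 36.3) and Adam9 (28.5 and 31.5) to Adam17 (10.9 and 10.8). Adam10 (8.77 and 7.99), Mmp11 (8.58 and 7.57) and Mmp19 (8.53 and 8.52) followed and did not differ beyond their spread. In TLX the last pair stood at 5.30 and 5.50 and at 4.12 and 4.60 CPM per kilobase, below Adam10 at 8.19 and 9.62. The least abundant tested member per length was Adam12 in control, at 0.187 and 0.0918 CPM per kilobase, and Adamts6 in TLX, at 0.288 and 0.262 CPM per kilobase.

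The next list holds genes that activate, anchor or restrain these proteases. Of 27 listed partners and regulators 14 were tested, of which 0 rose and 1 fell (4 at an unadjusted p under 0.05), which is 7.14% called beside 16.8% of all genes tested. The gene that fell was Plaur, the receptor that holds urokinase at the cell surface, from 325 ± 12 to 244 ± 7 CPM (SD, n = 2; log2 fold change -0.41, SE 0.08; edgeR adjusted p = 0.000468). Furin, which cuts the precursors of Mmp14, Mmp11 and most ADAMs, stood at 369 ± 2 and 325 ± 4 CPM (-0.18; edgeR adjusted p = 0.0961). The iRhom genes, whose products carry ADAM17 to the cell surface, had log2 fold changes of 0.23 for Rhbdf1 and -0.23 for Rhbdf2 (edgeR adjusted p of 0.0803 and 0.0909). Without control replicate 1 both passed (0.00217 and 0.0319; 0.00217 to 0.518 and 0.0252 to 0.506 over the alternatives). DESeq2 called 0 of this list higher and 1 lower.

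Of 26 related proteases and ADAMTS-like genes 15 were tested, of which 1 rose and 0 fell, or 6.67% called beside 16.8% of all genes tested. Adamtsl4, a secreted ADAMTS-like protein without protease activity that binds fibrillin, rose from 4.85 ± 0.26 to 7.93 ± 0.74 CPM (SD, n = 2; log2 fold change 0.70, SE 0.20; edgeR adjusted p = 0.0177), and did not pass without TLX replicate 2 (0.132) or in DESeq2 (0.212; 0.00393 to 0.212 over the alternatives). The procollagen C-proteinase gene Bmp1 had a log2 fold change of 0.15 and the beta-secretase gene Bace1 one of 0.19, and Mep1a, with 10 to 30 counts per library, one of -0.68 (edgeR adjusted p of 0.254, 0.242 and 0.203).

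Among transcripts of membrane proteins that ADAMs and MMPs release, more fell than rose. Of 40 listed substrates 26 were tested, of which 2 rose, 8 fell and 16 did not pass, which is 7.69% higher and 30.8% lower beside 7.79% and 9.04% of all genes tested. Of the EGF receptor ligand genes, whose products are released by ADAMs, 3 fell: Ereg from 130 ± 17 to 61.4 ± 6.4 CPM (log2 fold change -1.08), Hbegf from 85.1 ± 7.4 to 45.2 ± 4.5 CPM (-0.91) and Areg from 14.7 ± 1.8 to 4.75 ± 1.32 CPM (-1.64; SD, n = 2 for each; edgeR adjusted p between 3.79e-08 and 2.01e-06). The cytokine gene Csf1, made as a membrane form that ADAM17 cuts, fell from 793 ± 7 to 503 ± 7 CPM (-0.66; edgeR adjusted p = 2.05e-06).

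The other 6 called substrates, and Tgfa, were singled out after their values were seen. Tgfa, another EGF receptor ligand gene, had a log2 fold change of 0.07 (edgeR adjusted p = 0.799). Kitl (-0.83), Sdc4 (-0.59), Cd44 (-0.45) and Notch1 (-0.49) fell, with edgeR adjusted p of 2.98e-05, 3.85e-05, 0.000173 and 0.0286. Kitl encodes stem cell factor, Sdc4 a heparan sulfate proteoglycan and Cd44 the hyaluronan receptor that Mmp14 cuts. Notch1 did not pass without control replicate 1 (0.0663), without TLX replicate 2 (0.289) or in DESeq2 (0.234; 0.00323 to 0.289 over the alternatives). Cdh2, which encodes N-cadherin, cut by ADAM10, rose from 54.1 ± 1.7 to 87.3 ± 3.6 CPM, and Lrp8, a reelin receptor, from 26.5 ± 0.5 to 40.0 ± 1.1 CPM (SD, n = 2; edgeR adjusted p of 5.21e-06 and 0.000245). Transcripts say nothing of how much of any substrate was cut.

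**Figure D4:**
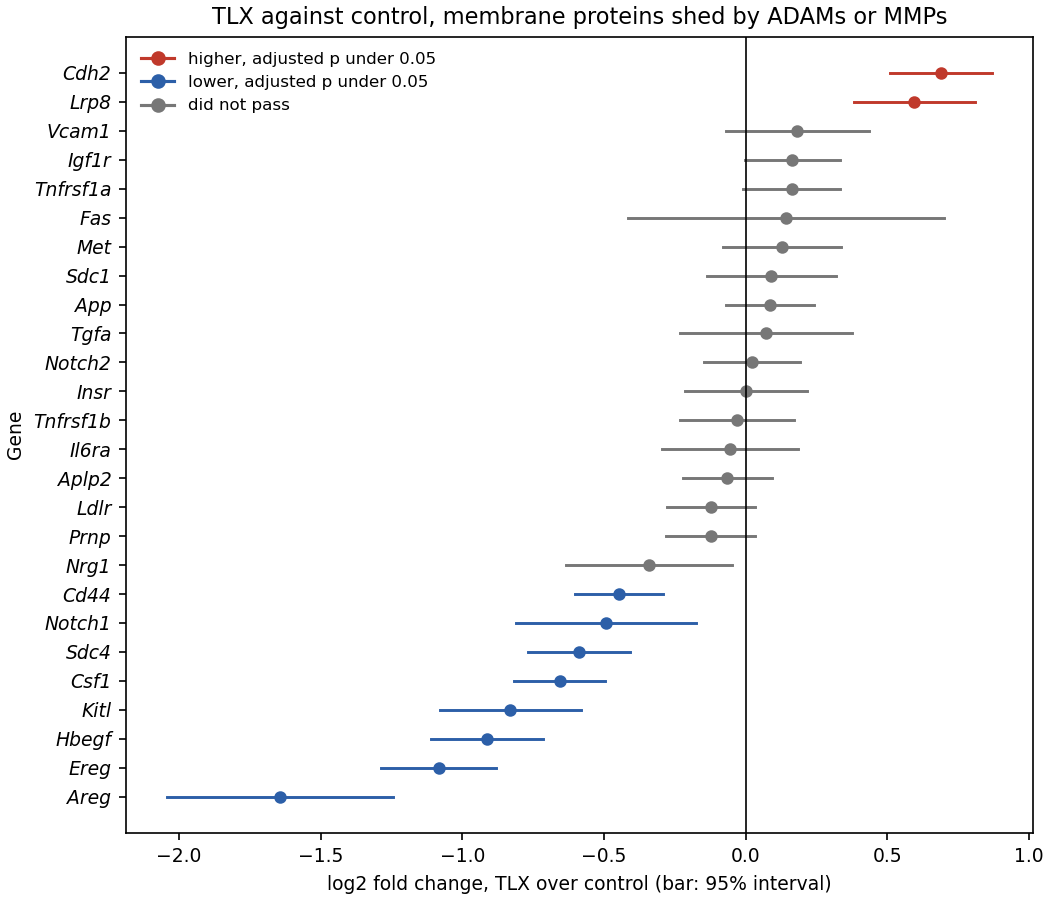
Log2 fold change of TLX over control with its 95% interval for the 26 tested genes of membrane proteins shed by ADAMs or MMPs, in order of size (red higher and blue lower at adjusted p under 0.05, grey not passed). Areg, Ereg and Hbegf lie lowest, at -1.64, -1.08 and -0.91, and Cdh2 and Lrp8 highest, at 0.69 and 0.60.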

How the data were processed

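RNA-seq was run on total RNA of 4 MIN6 libraries, 2 per group, per the labels. TopHat2 2.0.13 and the genome build mm9 are named in the submitters' processing notes; the counting program, its annotation and whether strand was used: none was given in the sources used here. A table from the authors holds deposited raw read counts per feature and a feature length as another measure, per the file headers. Of 56826 rows, 33353 named for FANTOM cDNA clones entered neither library sizes nor tests. Gene rows passing filterByExpr (minimum count 10) went into edgeR 4.0.16 with TMM factors (glmQLFit, glmQLFTest; 2 residual degrees of freedom, adjusted p under 0.05). CPM use TMM-scaled library sizes. The SE is the log2 fold change divided by the square root of F, and 95% intervals use the t quantile at the fit's total degrees of freedom. Alternatives used R 4.3.3, DESeq2 1.42.0 and limma 3.58.1. Replicates differed beyond sampling noise (median per-gene chi-square 1.07 in control, 0.718 in TLX, 0.455 for noise alone) and were counted as separate libraries.

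The members, gene lists and tests were chosen with earlier results of these data known. Named were all tested members by their values, some of the other members by their counts, every TIMP and Nr2e1. Up to 4 genes of smallest p were named from each wider list. Other names are marked. Levels of different genes were compared per kilobase of deposited length. Promoter sequences are from RefSeq (GRCm38.p6), a build other than mm9, so they serve names and motifs only.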

Additional observations from a re-analysis of the deposited data

How the results depend on the processing

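With 2 libraries per group and tested members down to 7 counts in a library, small changes of scarce genes were not detectable. Left-out-library fits assume that the lone library varies like the other group.

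Nr2e1 kept its call under each alternative, at 5.15 to 5.29. DESeq2's size factors, no normalization factors, limma-voom and all feature rows each called the same 10 members. DESeq2's Wald test called 355 genes higher and 484 lower, 2 members higher and 2 lower and 0 related proteases higher; it gave no adjusted p for 6 of the tested members. With only genes averaging at least 10 CPM, 12 members were tested, and 2 were called higher and 3 lower, with 0 related proteases higher, because the scarcer genes were not tested. With no filter the median log2 fold change of members was 0.096, over 50 members. Leaving out each library in turn gave 388 to 993 genes higher and 585 to 1060 lower, with the lowest counts without a TLX library. It gave 2 to 4 members higher and 5 to 6 lower, 0 to 1 partners and regulators higher and 1 to 2 lower, 0 to 1 related proteases higher and 0 to 1 lower, and 2 to 3 substrates higher and 7 to 8 lower. The median of members ran from -0.0944 to 0.0015. Signs reversed for Adam9 (-0.13 to 0.17), Adam10 (-0.0298 to 0.20), Adam8 (-0.73 to 0.23) and Adamts7 (-0.0208 to 0.11), none of which passed in any of these fits; the cause was not tested.

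The libraries share only a replicate number: deviations of same-numbered libraries correlated at 0.11 over 11024 genes. With the replicate block 1495 genes were called higher and 1487 lower, against 859 and 997 without it. Among partners and regulators 1 was called higher (Rhbdf1) and 3 lower (Plaur, Rhbdf2 and Furin), and 4 substrates were called higher and 8 lower; all 10 members kept their call, and Timp1 was added (-0.20, edgeR adjusted p = 0.0399).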
